A study of Mus musculus with 6 samples.

Results

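The 8 genes described here encode the machinery by which cells of the kidney proximal tubule take filtered protein back from the tubular fluid. They are Lrp2 (megalin), Cubn (cubilin), Amn (amnionless), Lrpap1 (the receptor-associated protein), Dab2, Clcn5, Ocrl and Fcgrt (the neonatal Fc receptor). They were chosen by symbol for their role, with earlier results of these data known. Shares of members and listed genes are therefore set beside those of all genes as a description only. All 8 were among the 24434 gene symbols of the deposited count table and among the 16373 genes that passed the filter on low counts. The series measured polyadenylated RNA of whole mouse kidney in 6 libraries, 3 from db/db mice and 3 from db/m mice, all on normal chow. In db/db mice both copies of the leptin receptor gene carry the db allele, which leads to obesity and diabetes, and db/m mice are the lean heterozygous controls. The comparison therefore asks how the kidneys of the diabetic model differ from those of its control. The sources used here give no strain, age or sex. They also leave unstated that every library is its own animal, and the p-values therefore reflect library-to-library spread, which may be technical.

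Small proteins and part of the albumin pass the glomerular filter and are bound at the brush border by megalin and by the complex of cubilin with amnionless. Adaptors link the loaded receptors to clathrin, endosomes are acidified by a proton pump together with chloride exchangers, cargo goes on to lysosomes and the receptors return to the surface. In humans, mutations in LRP2, CUBN, AMN, CLCN5 and OCRL cause inherited loss of low molecular weight protein or albumin into the urine.

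Total counts were 27023129 to 29868789 in db/db libraries and 25937756 to 35931140 in db/m libraries. Levels are given in CPM, the counts of a gene relative to the size of its library after trimmed-mean (TMM) scaling, with the SD over 3 libraries. Fold changes are db/db over db/m and come from the edgeR quasi-likelihood test over all 16373 genes, where an adjusted p (Benjamini-Hochberg) below 0.05 counted as a call. Lepr, the gene of the leptin receptor, stood at 4.45 ± 1.68 CPM in db/db and 3.01 ± 0.566 CPM in db/m libraries (n = 3 each, edgeR log2 fold change 0.56, adjusted p = 0.246), and a count summed over the gene does not show the splicing change of the db allele. RNA of whole kidney cannot tell fewer cells of a type from less RNA per cell.

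The megalin chaperone and the neonatal Fc receptor heavy chain had more RNA in the db/db kidneys. None of the 8 members was called lower under TMM scaling, and Ocrl was called lower with total counts only. Lrpap1 rose 1.88-fold (95% interval 1.66 to 2.13) and Fcgrt rose 1.63-fold (1.36 to 1.94). Thus 2 of 8 members were called higher and 0 lower, against 13.1% of all tested genes called higher, 10.8% called lower and 24% called in either direction. The receptors and the remaining endocytic genes did not pass the test, with fitted folds from 0.888 for Ocrl to 1.41 for Amn. DESeq2 called 5 members higher and limma-voom 2, against 2651 and 2204 of all 16373 genes. Both called 0 members lower, against 2170 genes by DESeq2 and 1737 by limma-voom. With no adjustment, 5 members had a p below 0.05, all higher, against 38.9% of all genes in either direction. Under TMM scaling the db/db and db/m ranges did not overlap for 7 of the 8 members, against 44.6% of all tested genes. The db/db libraries were above for 6 members (22.4% of all genes) and below for 1 (22.2%). These counts depend on the TMM factors, which were 0.901 to 0.923 in db/db and 1.06 to 1.12 in db/m libraries. Overlap was not counted with total counts only. The median log2 fold change was 0.27 over the 8 members and -0.06 over all tested genes, and 87.5% of the members had a positive value, against 45.3% of all genes. With total counts only the members' median was 0.0078, that of all genes was -0.32, and 5 of 8 members had a positive value.

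**Figure D1:**
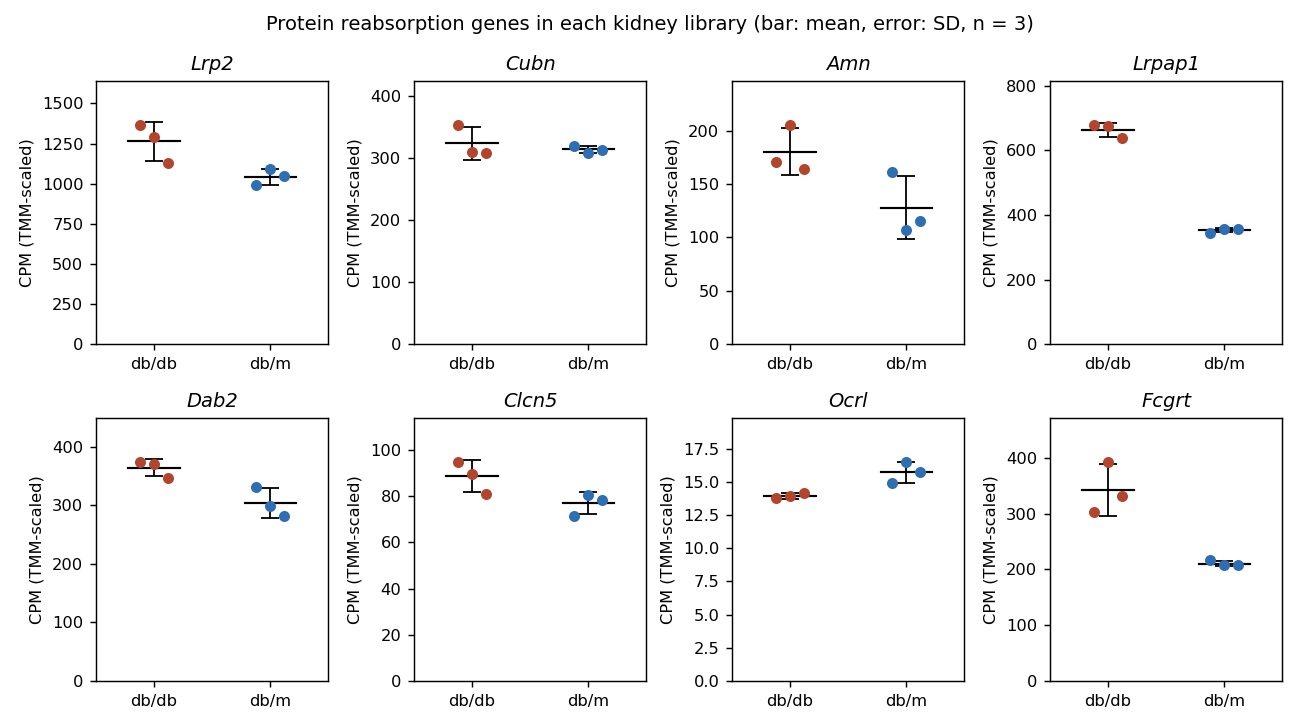
Level of each gene in each library, in TMM-scaled CPM on axes that start at 0, with db/db libraries on the left and db/m libraries on the right of each panel; bars are means and error bars SDs of 3 libraries. Lrpap1 and Fcgrt show the widest gaps between the groups, and Cubn overlaps.

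The 2 members that rose are shown with their promoters, and so are Lrp2 and Amn. Neither Lrp2 nor Amn passed the edgeR test, but DESeq2 called both higher. The sequences upstream of these starts can be compared. Each is 250 bases before and 50 bases after the RefSeq start, 5′ to 3′ on the strand of the gene, in build GRCm38.p6. Capitals mark exact matches, on either strand, to the motifs named after the sequences. Lrpap1 lies at chr5:35105650-35105949 on the minus strand, Fcgrt at chr7:45103773-45104072 on the minus strand, Lrp2 at chr2:69585980-69586279 on the minus strand and Amn at chr12:111270846-111271145 on the plus strand.
Lrpap1: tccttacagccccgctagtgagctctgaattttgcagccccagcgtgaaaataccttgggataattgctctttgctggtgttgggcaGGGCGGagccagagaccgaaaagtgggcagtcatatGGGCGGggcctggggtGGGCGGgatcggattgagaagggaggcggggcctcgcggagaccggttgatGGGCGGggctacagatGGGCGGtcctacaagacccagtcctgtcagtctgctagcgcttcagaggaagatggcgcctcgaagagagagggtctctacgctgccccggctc
Fcgrt: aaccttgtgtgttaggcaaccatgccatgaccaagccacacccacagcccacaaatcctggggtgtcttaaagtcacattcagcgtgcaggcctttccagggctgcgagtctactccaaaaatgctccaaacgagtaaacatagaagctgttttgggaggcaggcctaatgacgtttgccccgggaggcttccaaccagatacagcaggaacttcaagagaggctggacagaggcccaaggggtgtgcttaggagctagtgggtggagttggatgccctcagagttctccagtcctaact
Lrp2: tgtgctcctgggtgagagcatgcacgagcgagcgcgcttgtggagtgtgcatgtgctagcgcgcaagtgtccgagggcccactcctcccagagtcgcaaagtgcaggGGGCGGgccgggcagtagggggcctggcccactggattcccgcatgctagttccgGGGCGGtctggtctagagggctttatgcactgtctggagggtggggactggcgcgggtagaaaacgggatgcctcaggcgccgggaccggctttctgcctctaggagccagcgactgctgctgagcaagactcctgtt
Amn: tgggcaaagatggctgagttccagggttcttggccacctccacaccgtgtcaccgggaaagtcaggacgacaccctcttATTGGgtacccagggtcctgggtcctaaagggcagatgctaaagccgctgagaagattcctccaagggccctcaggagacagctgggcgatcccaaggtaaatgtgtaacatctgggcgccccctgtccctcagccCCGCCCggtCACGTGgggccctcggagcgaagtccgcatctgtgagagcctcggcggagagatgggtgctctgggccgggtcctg
The Lrpap1 promoter held 5 GC boxes (GGGCGG), Lrp2 held 2 and Amn held 1, whereas Fcgrt held no match to any motif described here. Of 32851 RefSeq promoters of the same length 35.7% held a GC box and 2.71% held 5 or more. Amn also held a CACGTG E-box, the core of the TFEB element, which 7.15% of promoters hold, and a CCAAT box, which 37.4% hold. The other motifs described here were TATAAA, which 13.6% of promoters hold, the HNF4 element CAAAGTCCA (0.475%) and a direct-repeat PPAR element (0.0396%). Among the other members, Ocrl held 2 GC boxes, Clcn5 1 GC box at one start and TATAAA at the other, and Cubn no match. A match is a description of letters in this window only.

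Lrpap1 encodes an endoplasmic reticulum chaperone that binds newly made megalin and other receptors of the LDL receptor family and keeps them free of ligand until they leave for the surface. It stood at 679, 674 and 638 CPM in db/db libraries, against 345, 358 and 357 CPM in db/m libraries. All 3 db/db libraries lay above every db/m library by far more than the spread within either group. The means were 663 ± 22 CPM in db/db and 353 ± 7.42 CPM in db/m libraries, and the edgeR log2 fold change was 0.91 (SE 0.078, adjusted p = 0.00058), the p ranking 145 among all genes tested. Over all 16 alternatives its log2 fold change ran from 0.65 to 0.95 and its adjusted p reached 0.0165 at most.

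Fcgrt encodes the heavy chain of the neonatal Fc receptor, which binds IgG and albumin in acid endosomes and carries them away from lysosomes. Its level was 302, 393 and 331 CPM in db/db libraries, against 216, 207 and 207 CPM in db/m libraries. The groups did not overlap, and the db/db libraries were more spread than the db/m ones. The means were 342 ± 46.5 CPM in db/db and 210.3 ± 5.0 CPM in db/m libraries, and the edgeR log2 fold change was 0.70 (SE 0.11, adjusted p = 0.00513). The call held without any single library (adjusted p 0.00975 to 0.0216) and ended without db/db replicate 3 and db/m replicate 3 together, where the log2 fold change was 0.72 and the adjusted p was 0.0528.

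Lrp2 encodes megalin, the large membrane receptor that binds a wide range of filtered proteins. It was at 1366, 1293 and 1130.1 CPM in db/db libraries, against 991, 1091 and 1049.8 CPM in db/m libraries. Its lowest db/db library stood just above its highest db/m library. The means were 1263 ± 121 CPM in db/db and 1044 ± 50.1 CPM in db/m libraries, and the edgeR log2 fold change was 0.27 (SE 0.10, adjusted p = 0.0935). The 95% interval of the fold ran from 1.02 to 1.43. DESeq2 called it higher (adjusted p = 0.0259), the only 1 of the 16 alternatives to do so. With total counts only its edgeR log2 fold change was 0.013 (adjusted p = 0.931).

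Cubn encodes cubilin, a receptor for albumin, transferrin and other proteins that has no membrane-spanning part of its own. Its level was 354, 309.6 and 308 CPM in db/db libraries, against 320.3, 309 and 314 CPM in db/m libraries. The groups overlapped, with db/db replicate 1 above the rest. The means were 324 ± 26 CPM in db/db and 315 ± 5.45 CPM in db/m libraries, and the edgeR log2 fold change was 0.042 (SE 0.086, adjusted p = 0.745). The 95% interval of the fold, 0.895 to 1.18, leaves room for small differences in either direction. The log2 fold change was -0.022 without db/db replicate 1. With total counts only, which shifts all genes alike, it was -0.22.

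Amn encodes amnionless, the small membrane protein that carries cubilin to the surface and anchors it there. It stood at 171, 205 and 164 CPM in db/db libraries, against 161, 107 and 116 CPM in db/m libraries. The groups were separated by a narrow margin, since db/m replicate 1 lay close to the lowest db/db library and far above the other db/m libraries. Means were 180.1 ± 22.1 CPM in db/db and 128 ± 29.2 CPM in db/m libraries, with a fold change of 0.49 on the log2 scale (SE 0.17, adjusted p = 0.0726), and the 95% interval of the fold ran from 1.07 to 1.86. Without db/m replicate 1 the log2 fold change was 0.71 (adjusted p = 0.0118), and DESeq2 also called Amn higher (adjusted p = 0.0199). With total counts only its edgeR log2 fold change was 0.24 (adjusted p = 0.256).

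Dab2 encodes the adaptor that binds the cytoplasmic tail of megalin and connects it to clathrin. It was at 374, 370.2 and 347 CPM in db/db libraries, against 331, 299 and 281 CPM in db/m libraries. All db/db libraries were above all db/m libraries, by a gap narrower than the range of either group. Means were 364 ± 14.6 CPM in db/db and 304 ± 25 CPM in db/m libraries, with a fold change of 0.26 on the log2 scale (SE 0.09, adjusted p = 0.0737), and the 95% interval of the fold was 1.04 to 1.39. It was called higher by DESeq2 (adjusted p = 0.0246) and without db/m replicate 1 (0.34, adjusted p = 0.0365), and in no other of the 16 alternatives. With total counts only its edgeR log2 fold change was 0.0027 (adjusted p = 0.981). Macrophages and endothelium express Dab2 and Fcgrt as well. Over all 16373 genes edgeR called 13.1% higher and 10.8% lower, and DESeq2 called 2651 higher. Of 6 macrophage markers 0 were called by edgeR or limma-voom and 1 was higher by DESeq2, as at an unadjusted p below 0.05. Their summed level was 112 to 131 CPM in db/db and 51.4 to 144 CPM in db/m libraries. Among 5 endothelial markers edgeR and limma-voom called 0, DESeq2 called 2 higher and 2 were higher at an unadjusted p below 0.05, with sums of 211 to 254 CPM in db/db and 140 to 233 CPM in db/m libraries. No marker of these lists was at 0 in any library, and their part in the levels of Dab2 and Fcgrt was not tested.

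Clcn5 encodes ClC-5, the chloride and proton exchanger of early endosomes. Its level was 95, 89.7 and 81.1 CPM in db/db libraries, against 71.6, 80.6 and 78.5 CPM in db/m libraries. The lowest db/db library and the highest db/m library nearly met. As for Lrp2 and Lrpap1, db/db replicate 1 was the highest and db/db replicate 3 the lowest of the db/db libraries, and db/m replicate 2 the highest and db/m replicate 1 the lowest of the db/m libraries. Means were 88.6 ± 6.98 CPM in db/db and 76.9 ± 4.71 CPM in db/m libraries, with a fold change of 0.20 on the log2 scale (SE 0.09, adjusted p = 0.14), with a 95% interval of the fold from 0.995 to 1.33, and with total counts only it was -0.058.

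Ocrl encodes an inositol polyphosphate 5-phosphatase of endosomes that acts on the lipids controlling receptor traffic. It was the least abundant member, with 343, 351 and 389 counts, or 13.8, 13.9 and 14.2 CPM, in db/db libraries, against 410, 653 and 488 counts, or 14.9, 16.5 and 15.7 CPM, in db/m libraries. Every db/db library lay below every db/m library. Means were 14 ± 0.22 CPM in db/db and 15.7 ± 0.814 CPM in db/m libraries, with a fold change of -0.17 on the log2 scale (SE 0.10, adjusted p = 0.247), with a 95% interval of the fold from 0.754 to 1.05. With total counts only it was called lower (-0.43, adjusted p = 0.0189).

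**Figure D2:**
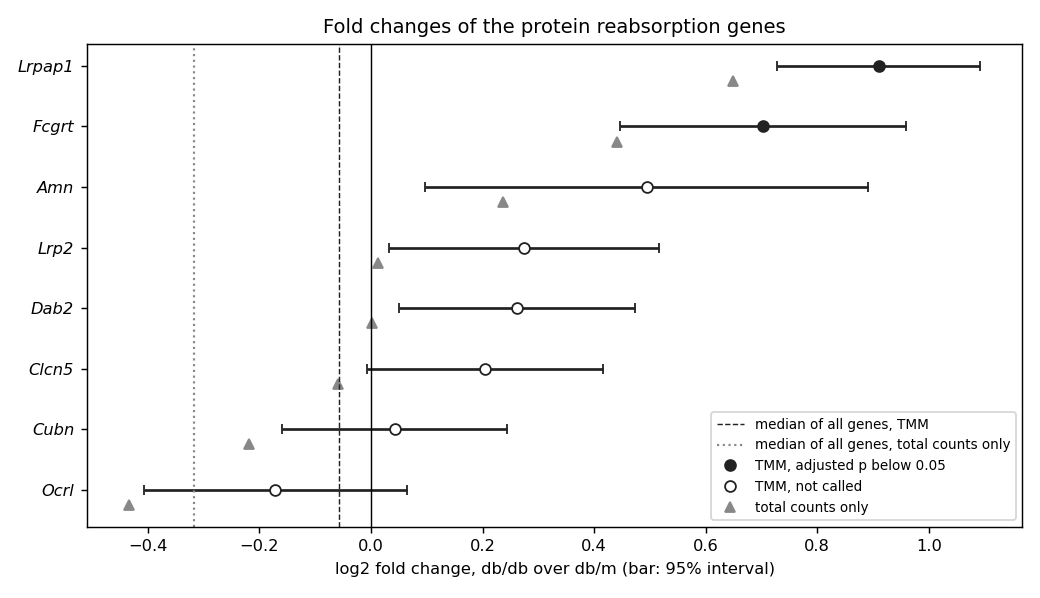
Log2 fold change of each gene, db/db over db/m, with its 95% interval under TMM scaling (circles, filled where called) and its value with total counts only (triangles); vertical lines mark 0 and the median of all genes under each scaling. Triangles sit left of the circles by about as much as the median of all genes moved.

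The size of these differences depended on how libraries were scaled. With total counts only, the median over all genes shifted by -0.26 on the log2 scale, to -0.32. Of the called genes 18.0% were then higher and 82.0% lower, against 54.8% and 45.2% with TMM scaling. A change of scaling moves all genes by nearly the same amount, so a member's distance from the median of all genes is nearly fixed by construction. That log2 difference was 0.97 for Lrpap1, 0.76 for Fcgrt, 0.55 to 0.56 for Amn, 0.33 for Lrp2, 0.32 for Dab2, 0.26 for Clcn5, 0.10 for Cubn and -0.12 to -0.11 for Ocrl. Lrpap1 and Fcgrt were called under every scaling.

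Levels of different genes can be compared only per length, for which CPM was divided by the merged exon length of each gene in GENCODE M21 (1843 bases in Amn to 16701 bases in Lrp2). Fcgrt and Lrpap1 were the most abundant members, Fcgrt at 163 ± 22.1 CPM per kb in db/db and 100.1 ± 2.38 in db/m libraries, and Lrpap1 at 161 ± 5.34 CPM per kb in db/db and 85.8 ± 1.8 in db/m libraries. The ranges of this pair overlapped in db/db libraries and not in db/m libraries. Amn came next, at 97.7 ± 12 CPM per kb in db/db and 69.4 ± 15.8 in db/m libraries, followed by Lrp2 at 75.6 ± 7.23 in db/db and 62.5 ± 3.0 in db/m libraries. Amn and Lrp2 were apart in db/db libraries and overlapped in db/m libraries, and Amn also reached the range of Lrpap1 there. Dab2 had 49.6 ± 1.99 CPM per kb in db/db and 41.4 ± 3.41 in db/m libraries, below every library of Lrp2. Cubn had 21.7 ± 1.74 CPM per kb in db/db and 21.1 ± 0.365 in db/m libraries, so its level per length was below that of its partner Amn in each library. The X-linked genes were lowest, Clcn5 at 7.74 ± 0.609 CPM per kb in db/db and 6.72 ± 0.412 in db/m libraries, and Ocrl at 1.47 ± 0.0232 CPM per kb in db/db and 1.66 ± 0.0858 in db/m libraries. Over 15057 tested genes with a length, the mean per kb of 6 libraries ranked 389th for Fcgrt, 423rd for Lrpap1, 620th for Amn and 724th for Lrp2, and 10159th for Ocrl.

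**Figure D3:**
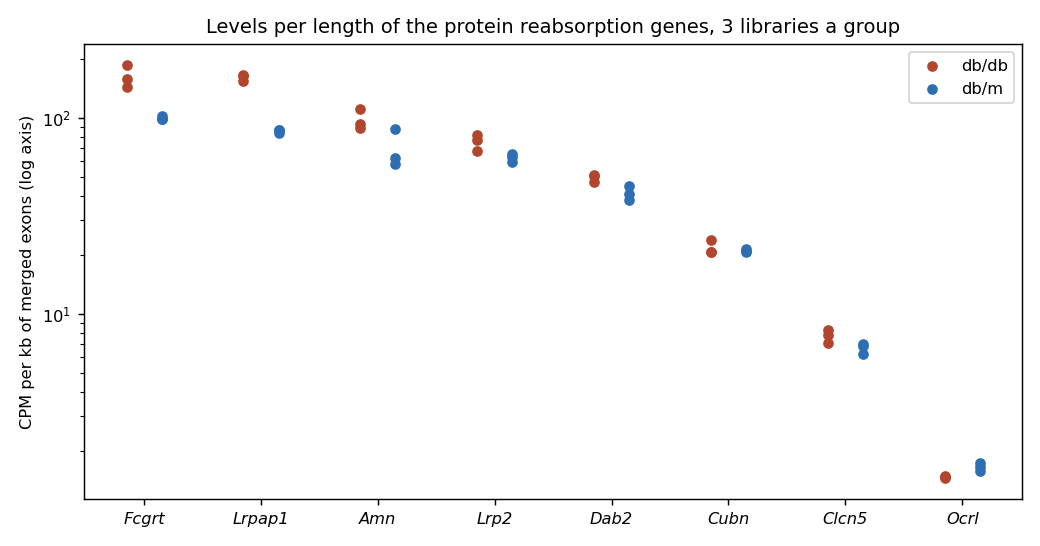
CPM per kb of merged exons of each gene on a log axis, with 3 db/db libraries (left, red) and 3 db/m libraries (right, blue) per gene, ordered by the db/db mean. The genes span from under 2 CPM per kb for Ocrl to over 100 CPM per kb for Fcgrt.

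Annotated genes that overlap the members could add to or take from their counts, since the sources used here do not state how reads were counted or whether strand was used. In GENCODE M21, 2.46% of the exon bases of Cubn also lie in exons of Gm13270 and 2.87% of those of Dab2 in the pseudogene Gm18888, both on the opposite strand. No other member shares exon bases with an annotated gene.

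The ratio of the counts of 2 partner genes within a library does not depend on the scaling between libraries. For 6 such ratios an exact two-sided permutation test over the libraries was made, which with 3 against 3 cannot give a p below 0.1, so none could pass after adjustment over the 6. Chaperone to receptor, Lrpap1 over Lrp2, was 0.497, 0.521 and 0.565 in db/db libraries, against 0.348, 0.328 and 0.340 in db/m libraries. Every db/db library held more Lrpap1 per Lrp2 than any db/m library, with a log2 difference of 0.64 (exact permutation p = 0.1, adjusted p = 0.15), and 0.59 to 0.68 without any single library. Cubn over Lrp2 was 0.259, 0.239 and 0.273 in db/db libraries, against 0.323, 0.284 and 0.299 in db/m libraries. The groups did not overlap, and the log2 difference was -0.23 (exact permutation p = 0.1, adjusted p = 0.15).

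Amn over Cubn, the 2 subunits of one receptor complex, was 0.483, 0.663 and 0.532 in db/db libraries, against 0.503, 0.345 and 0.368 in db/m libraries. Here db/m replicate 1 fell inside the db/db range (log2 difference 0.47, exact permutation p = 0.2, adjusted p = 0.24). Dab2 over Lrp2 averaged 0.289 ± 0.0168 in db/db and 0.292 ± 0.0362 in db/m libraries, a log2 difference of -0.0075 (exact permutation p = 0.9, adjusted p = 0.9) whose sign turned without db/db replicate 1 (0.030) or db/m replicate 1 (0.092). Clcn5 over Ocrl was 6.90, 6.45 and 5.71 in db/db libraries, against 4.80, 4.88 and 5.0 in db/m libraries. These groups did not overlap (log2 difference 0.37, exact permutation p = 0.1, adjusted p = 0.15). The 4 ratios whose groups did not overlap were those of Lrpap1 and Cubn to Lrp2, of Clcn5 to Ocrl and of Fcgrt to B2m. Of all single genes tested, 44.6% did not overlap under TMM scaling. The share over other pairs of genes was not computed, so this is a description only.

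B2m encodes beta-2 microglobulin, the light chain that the neonatal Fc receptor shares with MHC class I molecules. It stood at 219.8, 215 and 258 CPM in db/db libraries, against 274, 2401 and 694 CPM in db/m libraries, and did not pass the test (log2 fold change -2.28, SE 0.69, adjusted p = 0.0513). Fcgrt over B2m was 1.37, 1.83 and 1.29 in db/db libraries, against 0.788, 0.0864 and 0.299 in db/m libraries, with a log2 difference of 2.44 (exact permutation p = 0.1, adjusted p = 0.15). Without db/m replicate 2, which held the most B2m, this difference was 1.61, and without db/m replicate 1 it was 3.20.

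**Figure D4:**
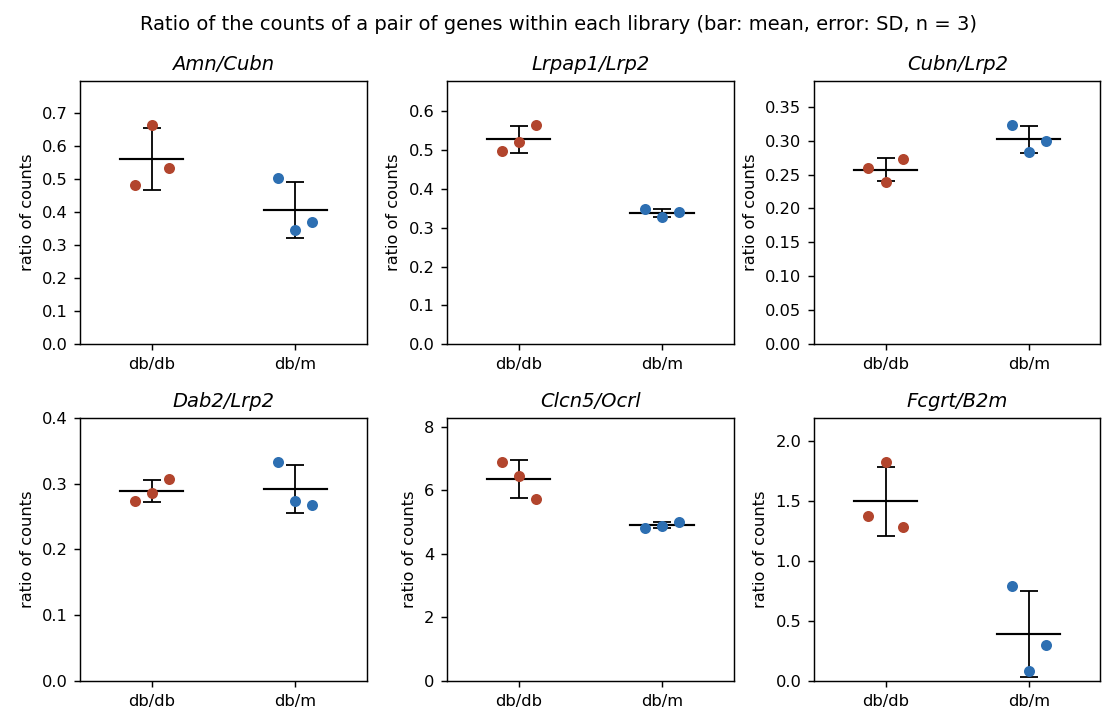
Ratio of the counts of a pair of genes in each library on axes that start at 0, with db/db libraries on the left and db/m libraries on the right; bars are means and error bars SDs of 3 libraries. Lrpap1/Lrp2, Cubn/Lrp2, Clcn5/Ocrl and Fcgrt/B2m separate the groups, and Amn/Cubn and Dab2/Lrp2 overlap.

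Markers of the proximal tubule segments moved unevenly beside the members. Of all tested genes 13.1% were called higher, 10.8% lower and 24% in either direction. These are the shares to set beside the marker counts here, and 1 call in a list of a few markers is too few for a comparison. Of 10 markers of the S1 and S2 segments, where protein uptake is most active, 1 rose and 3 fell. Their median log2 fold change was -0.37, and 3 of the 10 had a positive value. Their summed level was 10654 to 13607 CPM in db/db and 8187 to 12101 CPM in db/m libraries. The phosphate transporter Slc34a1, which was not called, made up the largest part of that sum in every library. It was at 6956 ± 1074 CPM in db/db and 4927 ± 1304 CPM in db/m libraries (log2 fold change 0.50, adjusted p = 0.121). All 6 markers of the S3 segment rose, by unlike fitted folds that ran from 1.85 for Slc5a8 to 56.4 for Acsm3. Their sum was 3098 to 4169 CPM in db/db and 345 to 573 CPM in db/m libraries. RNA of adipocyte markers was unequal among libraries, with a sum of 283 CPM in db/db replicate 3 and 155 CPM in db/m replicate 3. The sum was 71.1 and 71.2 CPM in the other db/db and 50.6 and 68.8 CPM in the other db/m libraries. Fabp4 made up most of it in every library. Adipoq was at 19.2 CPM in db/db replicate 3 and 13.6 CPM in db/m replicate 3, and at 0.0792 to 1.34 CPM elsewhere. Of 5 markers of tubular injury Spp1, which encodes osteopontin, fell and made up nearly all of their sum, at 369 to 578 CPM in db/db and 1085 to 1798 CPM in db/m libraries. All 3 distal convoluted tubule markers fell, with sums of 551 to 648 CPM in db/db and 891 to 1268 CPM in db/m libraries. The principal cell sum was 299.7 to 467 CPM in db/db and 621 to 1012 CPM in db/m libraries, with the water channel gene Aqp2 called lower among 3 markers. Podocyte markers summed to 226 to 311 CPM in db/db and 307 to 370.2 CPM in db/m libraries. Of 4 intercalated cell markers Slc4a1 fell, and of 4 fibroblast markers Col1a1 rose. The part of all these markers in the members' differences was not tested.

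Other genes of the uptake pathway were counted in 7 lists of 95 symbols, of which 94 were tested. In all, 19 of the 94 rose and 10 fell in db/db kidneys, against 13.1% of all tested genes called higher and 10.8% called lower, the shares to set beside each list below. Their median log2 fold change was 0.08, against -0.06 over all genes. The total of 29 calls came to 16 to 19 when db/db replicate 1, 2 or 3 or db/m replicate 2 was left out, and with total counts only to 35. Endosome acidification genes had the most calls, with 7 of 16 higher and 2 lower and a list median of 0.18, or 3 higher and 3 lower with total counts only. Without db/db replicate 3 the counts were 4 higher and 0 lower. The direction of calls in other lists also moved with total counts only, to 0 higher and 5 lower in the clathrin coat, 0 higher and 7 lower in endosome sorting and 0 higher and 5 lower in the LDL receptor family. Clcn3 and Clcn4, the closest relatives of Clcn5 among the chloride exchangers, were among those that rose. Clcn4 was at 89.3 ± 2.69 CPM in db/db and 57.8 ± 2.78 CPM in db/m libraries (log2 fold change 0.63, SE 0.075, adjusted p = 0.00195), and Clcn3 was at 115 ± 6.08 CPM in db/db and 78.6 ± 2.09 CPM in db/m libraries (0.55, SE 0.075, adjusted p = 0.00316). Atp6v0c, a membrane subunit of the proton pump, was at 507 ± 16.1 CPM in db/db and 299 ± 25.3 CPM in db/m libraries (0.76, SE 0.091, adjusted p = 0.00196). The calls on these 3 genes held in all 16 alternatives. Atp6v0a4, a pump subunit that intercalated cells also express, and the pump accessory gene Atp6ap2 fell by 0.34 and 0.30 on the log2 scale. The Atp6v0a4 call ended without db/db replicate 1 or 3 or db/m replicate 1 or 2 (adjusted p 0.0584 to 0.0943), and the Atp6ap2 call ended whichever of the 6 libraries was left out (adjusted p 0.0502 to 0.0705).

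**Figure D5:**
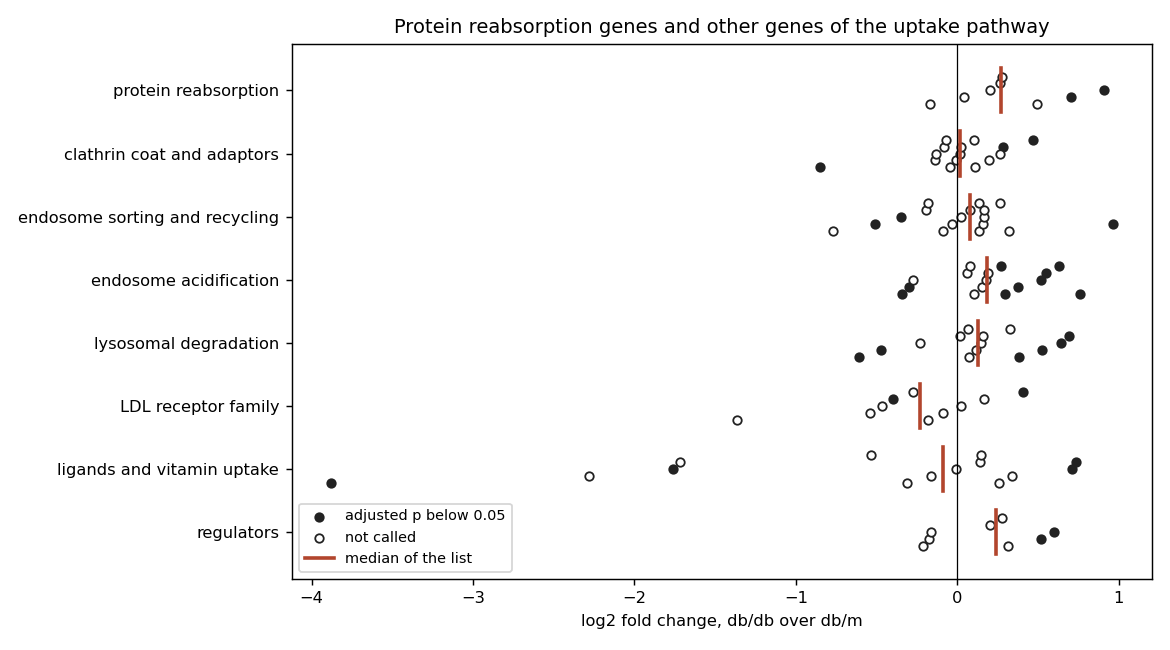
Log2 fold change, db/db over db/m, of the 8 protein reabsorption genes (top) and of the other genes of the uptake pathway by list; filled points passed the test and red bars are list medians. Endosome acidification has 7 filled points right of 0, and the largest fall, at -3.88, is Gc.

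Of 15 genes of the clathrin coat and its adaptors 2 rose and 1 fell, with a list median of 0.02. The clathrin light chain gene Clta rose by 0.47 and Ap2m1, a subunit of the AP-2 adaptor, by 0.28 on the log2 scale. Clta was not called without db/db replicate 1 or 2 or db/m replicate 2 (adjusted p 0.0545 to 0.0708) or with total counts only, where p was 0.162 after adjustment. The Ap2m1 call ended whichever of the 6 libraries was left out (adjusted p 0.0593 to 0.106), and with total counts only its adjusted p was 0.831. Appl2, an endosomal adaptor, fell, at 28.9 ± 1.85 CPM in db/db and 52.2 ± 14 CPM in db/m libraries (-0.85, SE 0.18, adjusted p = 0.0162), and was not called without db/db replicate 1 or 3 (adjusted p 0.0552 to 0.0642).

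Among 17 genes of endosome sorting and recycling 1 rose and 2 fell, with a list median of 0.08. Rab38, a small GTPase of endosomes and lysosome-related organelles, was at 11.7 ± 2.07 CPM in db/db and 5.99 ± 1.95 CPM in db/m libraries (0.97, SE 0.27, adjusted p = 0.0402). That call ended without any 1 of the db/db libraries or db/m replicate 2 (adjusted p 0.0637 to 0.12) and under total counts scaling, with an adjusted p of 0.0948. Rabep1, an effector of the early endosome GTPase RAB5, fell by 0.51 (SE 0.079, adjusted p = 0.0049) and Rab4a, of the rapid recycling route, by 0.35 (adjusted p = 0.0288). Rab4a was not called without any 1 of the db/db libraries or db/m replicate 1 or 2 (adjusted p 0.0586 to 0.106). Inpp5b, a phosphatase related to Ocrl, stood at 98.7 ± 5.08 CPM in db/db and 112 ± 18.8 CPM in db/m libraries and was not called (adjusted p = 0.318).

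Of 14 lysosomal genes 4 rose and 2 fell, with a list median of 0.13. The protease gene Ctsh (0.69, SE 0.084) and Clcn7, the lysosomal chloride exchanger (0.52, SE 0.08), rose and stayed called in all 16 alternatives. Ctns, the cystine exporter, fell by 0.61 and Lgmn, the asparaginyl endopeptidase, by 0.47. Ctns was not called without any 1 of the db/db libraries or db/m replicate 1 or 2 (adjusted p 0.0551 to 0.0766), nor Lgmn without db/db replicate 3 or db/m replicate 2 (adjusted p 0.0501 to 0.0692).

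In the rest of the LDL receptor family, which Lrpap1 also serves, 1 of 10 tested rose and 1 fell, with a list median of -0.23, and 3 fell without db/m replicate 1. Lrp1b was not analysed here. Lrp10 was higher by 0.41 (SE 0.078, adjusted p = 0.0108), or 0.15 under total counts scaling (adjusted p = 0.212), and Lrp6, a Wnt co-receptor, fell by 0.40 (SE 0.074, adjusted p = 0.0097). Lrp1, another receptor that Lrpap1 binds, was at 55.9 ± 10.6 CPM in db/db and 49.8 ± 20.1 CPM in db/m libraries (adjusted p = 0.688).

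Ligands and vitamin uptake genes split, with 2 of 14 higher, 2 lower and a list median of -0.09. Folr1, the folate receptor of the proximal tubule, was at 476 ± 28.5 CPM in db/db and 286 ± 21.5 CPM in db/m libraries (0.73, SE 0.093, adjusted p = 0.00238). Tcn2, the vitamin B12 carrier whose complex megalin takes up, was at 1931 ± 208 CPM in db/db and 1179 ± 78.6 CPM in db/m libraries (0.71, SE 0.11, adjusted p = 0.00551). Among megalin ligand genes, Gc (log2 fold change -3.88, SE 0.21) and Apoe (-1.76, SE 0.17) fell. Calls on these 4 genes held in all 16 alternatives.

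Of 8 regulator genes 2 were called higher and 0 lower by edgeR, 3 higher and 0 lower by DESeq2 and 2 higher and 0 lower by limma-voom, and with no adjustment 0 had a p below 0.05 and a lower level. Under total counts scaling 0 were called higher and 1 lower. Vdr, the vitamin D receptor, rose by 0.60 on the log2 scale, a call that ended without db/db replicate 1 or 2 or db/m replicate 2 (adjusted p 0.0628 to 0.0671).

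Among 11031 genes ranked by how closely their log2 CPM over the 6 libraries followed that of Lrp2, the highest included Slc29a3, Ubac2, Camk2n1 and Dnajb2, with Pearson r from 0.988 to 0.992. The 6 libraries share the split into 2 groups and the scaling, so this is a description. Slc29a3 was at 71.3 ± 10.3 CPM in db/db and 56 ± 4.77 CPM in db/m libraries (log2 fold change 0.35, adjusted p = 0.0817), and of these 4 genes Ubac2 was called higher (0.31, adjusted p = 0.045).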

How the data were processed

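Whole-kidney polyadenylated RNA of 6 libraries was compared, 3 db/db and 3 db/m, grouped by genotype label. The authors deposited 1 table of raw whole-number counts, with a row per gene symbol and a column per library. The submitters' processing notes list fastp, FastQC, HISAT2, SAMtools, StringTie and DESeq2 but no versions or roles. Build, annotation and counting rules were not stated, so levels per length rest on an annotation (GENCODE M21) that may differ from the authors' own. Per the labels' protocols, libraries were strand-specific.

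Genes passing filterByExpr were scaled by TMM, with factors of 0.901 to 0.923 in db/db and 1.06 to 1.12 in db/m libraries. They were tested with glmQLFit and glmQLFTest (edgeR 4.0.16, R 4.3.3) without covariates, adjusted over all genes tested. SEs are the log2 fold change over the square root of F. The procedure was tested on simulated counts. The 16 alternatives were 3 other scalings (DESeq2 factors, upper quartile, total counts), DESeq2 1.42.0, limma-voom (limma 3.58.1), no filter, a stricter filter (1 CPM and 10 counts, 3 libraries), no mitochondrial genes, a replicate block, each library left out, and, chosen after seeing the data, db/db replicate 3 and db/m replicate 3 left out together.

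The members and lists were chosen with earlier results of these data known. Named genes were all members, Lepr, up to 3 called genes per pathway list and direction by smallest p, and the 5 most like Lrp2 (average log2 CPM of at least 2, no predicted or clone symbol). Inpp5b, Lrp1 and the single marker genes were named after their values were seen, and B2m as the partner of Fcgrt. Promoters of all 8 members were matched by symbol in the RefSeq table. Some genes and motifs that these rules select are not reported here.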

Additional observations from a re-analysis of the deposited data

How the results depend on the processing

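The members called higher were 2 by edgeR over all libraries (2151 of 16373 genes) and 5 by DESeq2 (2651 of 16373 genes). They were 2 to 4 when 1 library was left out, with 4 without db/m replicate 1 (2011 of 16807 genes). Without db/db replicate 3 and db/m replicate 3 together 1 member was called higher (1052 of 16434 genes). Members called lower were 0, and 1, Ocrl, under total counts scaling, where 4883 of 16373 genes were called lower. The sign turned for Cubn (-0.22) and Clcn5 (-0.058) under total counts scaling. Leaving out 1 library gave -0.022 to 0.082 for Cubn, negative without db/db replicate 1, and -0.066 to 0.092 for the log2 Dab2 to Lrp2 ratio, positive without db/db replicate 1 (0.030) and db/m replicate 1. The 29 called pathway genes numbered 15 with the replicate block, 14 without both libraries numbered 3 and 16 to 28 when 1 library was left out. The cause was not tested. Of 26 called genes among the members and those named from the pathway lists, 11 kept their call in all 16 alternatives. The genes ranked by likeness to Lrp2 were not refitted.

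Deviations from the group mean correlated at r = -0.15, 0.057 and 0.14 over 16373 genes between libraries of the same replicate number. With 3 libraries a group such deviations are bound to each other, so these values cannot decide whether the number marks a pairing. The main fit used no pairing. With the replicate block 2 members stayed called, Lrpap1 (0.91, adjusted p = 0.0105) and Fcgrt (0.69, adjusted p = 0.0258), and the log2 ratio of Lrpap1 to Lrp2 differed by 0.64. Over all genes the block left 1313 calls higher and 973 lower, against 2151 and 1774 without it.

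The lowest member count was 343, of Ocrl in db/db replicate 1. With 3 libraries a group the exact tests of the ratios cannot go below p = 0.1, so they say nothing about which ratios differ.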
